A study of Mus musculus with 6 samples.

Results

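The blood and serum miRNAs are a set of small RNAs that are known from red cells, liver and plasma: miR-451a, miR-486a-5p, miR-486b-5p, miR-122-5p and both arms of miR-144. They were chosen by name. Of the 6 names, 5 had a row in the count table, which holds 810 miRNAs in all, and miR-144-5p was not analysed here. The mature sequences of miR-486a-5p and miR-486b-5p are the same, so their reads were summed as miR-486-5p, which left 4 members. The question was whether these miRNAs differed in level between Cis-sEV and Ctrl-sEV, and whether they moved together.

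Both groups were small extracellular vesicles (sEV) from the culture medium of cochlear sensory epithelium, the hair cell-bearing tissue of the inner ear, taken from P3 ICR mice with the spiral ganglion removed. The Cis-sEV explants received 50 µM cisplatin for 48 h and the Ctrl-sEV explants an equal volume of PBS, both in medium whose fetal bovine serum had been depleted of vesicles. Each group had 3 libraries, each pooled from about 80 explants, so that differences between single animals are not seen. The Cis-sEV libraries held 1722359 to 1794175 miRNA reads and the Ctrl-sEV libraries 528952 to 718597. Levels are therefore given as CPM, the reads of a miRNA scaled to a library of 1000000 miRNA reads, beside the reads, and 3 reads, taken as the floor, were worth 1.67 to 1.74 CPM for Cis-sEV and 4.17 to 5.67 CPM for Ctrl-sEV.

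A mature miRNA guides an Argonaute protein to messenger RNAs, mainly through its seed, bases 2 to 8. miR-451a and miR-144 are made from a shared erythroid transcript, and miR-451a is unusual because Dicer does not cut its short hairpin. Argonaute2 cuts it instead, so the mature strand runs through the loop. miR-486 lies within Ank1, the gene of the red cell membrane protein ankyrin, and is also abundant in muscle. miR-122 is the main miRNA of hepatocytes and a serum marker of liver injury. The ratio of miR-451a to miR-23a-3p, which is not red cell-specific, is in common use as an index of haemolysis in plasma.

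The mature strands are shown with the seed in capitals, because both miR-486-5p rows have the same letters and the other members share no seed. They are given as deposited, and those of miR-451a and miR-144-3p were identical in RefSeq.
mmu-miR-451a: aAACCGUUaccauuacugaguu
mmu-miR-486a-5p: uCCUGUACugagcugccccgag
mmu-miR-486b-5p: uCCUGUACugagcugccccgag
mmu-miR-144-3p: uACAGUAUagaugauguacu
No other row of the table had the seed of miR-451a, miR-144-3p or miR-122-5p, and the seed of miR-486a-5p occurred in 1 other row, miR-486b-5p. The opposite arms of the miR-486 hairpins also carry the same seed, and the strand named miR-486a-3p is miR-486b-3p with 1 base more at its end.
mmu-miR-486a-3p: cGGGGCAGcucaguacaggau
mmu-miR-486b-3p: cGGGGCAGcucaguacagga

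The hairpins show how the paired miR-486 names relate, and how the mature miR-451a runs through its loop. In the deposited hairpins the mature strand is in capitals.
mmu-miR-451a hairpin: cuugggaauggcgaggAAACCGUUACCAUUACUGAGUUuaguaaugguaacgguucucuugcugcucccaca
mmu-miR-486a-5p hairpin: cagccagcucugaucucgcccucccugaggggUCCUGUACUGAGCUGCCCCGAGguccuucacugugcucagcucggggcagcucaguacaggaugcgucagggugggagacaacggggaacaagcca
mmu-miR-486b-5p hairpin: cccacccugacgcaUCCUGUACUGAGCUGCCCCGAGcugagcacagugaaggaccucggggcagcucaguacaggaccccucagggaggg
The miR-451a hairpin is 72 bases long and its mature strand covers bases 17 to 38, across the middle base, 36. The hairpin of miR-486b is the reverse complement of a stretch of the miR-486a hairpin. The miR-486a hairpin is thus close to a palindrome, and its 5p arm reads the same from both strands of the genome.

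In GRCm38 (GENCODE M21), Mir486 covers chromosome 8, 23142555 to 23142682, on the plus strand, and Mir3107, the gene of miR-486b, 23142573 to 23142662 on the minus strand. They share 90 bases, and both lie in an intron of Ank1 with no overlap with its exons. Mir144 (chromosome 11, 78073005 to 78073070, plus strand) and Mir451a (78073170 to 78073241, plus strand) have 99 bases between them and lie in no protein-coding gene. The nearest one, Eral1, is 135 bases from Mir451a. Mir122 (chromosome 18, 65248861 to 65248926, plus strand) also lies in no protein-coding gene, with Alpk2 as the nearest at 16603 bases.

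miR-122-5p, the liver miRNA, was the most abundant member in Ctrl-sEV, where it was counted 3669, 4749 and 3231 times, against 2186, 1698 and 2603 reads in the deeper Cis-sEV libraries. Every Cis-sEV library thus had fewer reads than every Ctrl-sEV library even before scaling. After scaling to the miRNA reads of each library, the levels were 6797, 6609 and 6108 CPM in Ctrl-sEV, against 1220, 986 and 1451 CPM for Cis-sEV, and the groups were far apart. miR-122-5p made up 0.650% ± 0.0356 (SD, n = 3) of the miRNA reads of Ctrl-sEV, and 0.122% ± 0.0232 (SD, n = 3) of those of Cis-sEV. Its rank by mean CPM was 31 in Ctrl-sEV and 75 in Cis-sEV.

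miR-486-5p, the sum of both rows, had 444, 626 and 159 reads in Ctrl-sEV and 142, 143 and 139 reads in Cis-sEV. All Cis-sEV libraries were lower, though Ctrl-sEV replicate 3 came close to them. In CPM the Ctrl-sEV levels were 823, 871 and 301, and the Cis-sEV levels 79.3, 83.0 and 77.5. The spread was unequal: the coefficient of variation was 3.55% in Cis-sEV and 47.6% in Ctrl-sEV, in which replicate 3 lay 2.90-fold below the highest.

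miR-451a, the erythroid miRNA, was counted 1170, 1964 and 708 times in Ctrl-sEV, and 2235, 2160 and 1939 times in Cis-sEV. In reads it was thus more often counted in Cis-sEV on average, with 2111 ± 154 reads against 1281 ± 635 (SD, n = 3 each), and the groups overlapped. In CPM the order was the opposite, with 2168, 2733 and 1339 CPM in Ctrl-sEV and 1248, 1254 and 1081 CPM in Cis-sEV. These no longer overlapped, but the gap between the lowest Ctrl-sEV library and the highest Cis-sEV library was small beside the range within Ctrl-sEV. miR-451a was the member for which the direction depended on dividing by the library total.

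**Figure D1:**
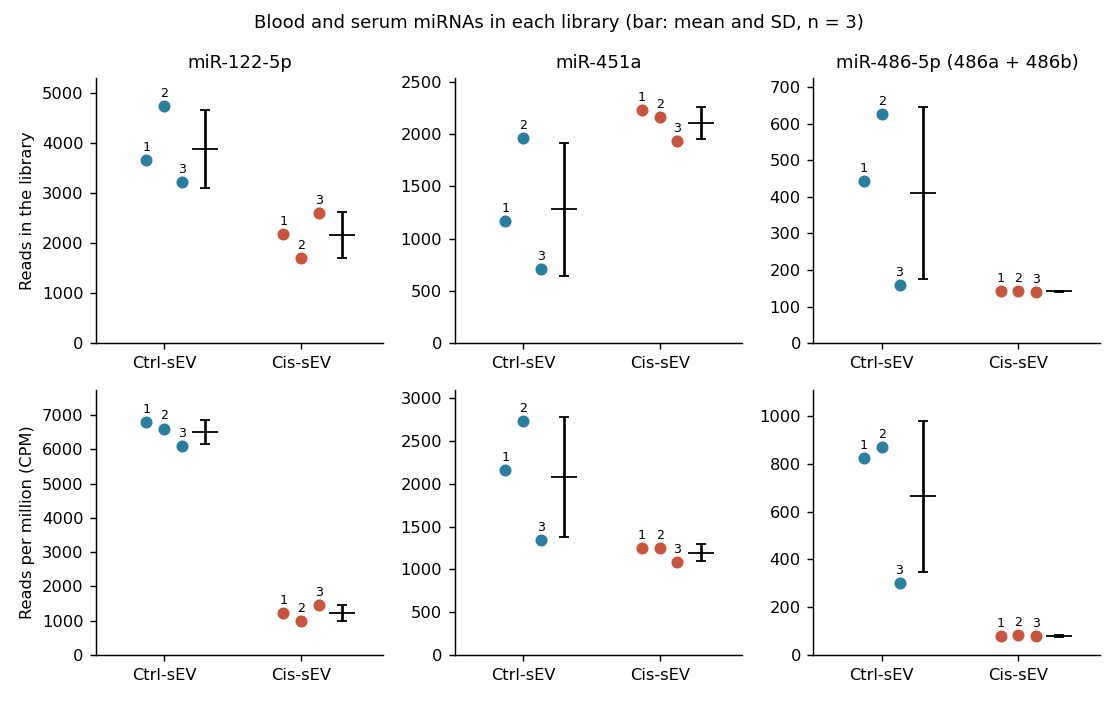
Reads (upper panels) and CPM (lower panels) of miR-122-5p, miR-451a and miR-486-5p in each library. Points are libraries with their replicate number, bars are the mean and SD (n = 3), and all vertical axes start at 0; miR-451a is the panel in which the groups change order, from a mean of 2111 reads in Cis-sEV and 1281 in Ctrl-sEV to 1194 and 2080 CPM.

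miR-144-3p, from the same transcript as miR-451a, was hardly seen. It had 2 reads in Cis-sEV replicate 1 and 0 reads in the other 5 libraries, all under the floor of 3 reads. The other strands of the member genes were as scarce, except in single libraries. miR-122-3p had 2, 0 and 20 reads in Cis-sEV and 0, 0 and 1 in Ctrl-sEV. miR-486b-3p had 2, 0 and 40 reads in Cis-sEV and 3, 2 and 44 in Ctrl-sEV, so that replicate 3 of each group carried most of it. miR-486a-3p had 0, 15 and 1 reads in Cis-sEV and 1, 0 and 1 in Ctrl-sEV. None of these rows passed the filter on low counts, so no test was made.

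The edgeR quasi-likelihood test was fitted over all 352 miRNAs that passed the filter, with TMM factors, which rescale the library totals so that most miRNAs stay level, and Benjamini-Hochberg adjustment. A call required an adjusted p no higher than 0.05 together with a log2 fold change of 1 or more in either direction. All 3 members that were tested were called lower in Cis-sEV. Of all miRNAs tested, 6.53% were called lower and 30.1% were called in either direction, with 83 higher and 23 lower. The TMM-scaled levels of all 3 members did not overlap between the groups, with each Cis-sEV library below each Ctrl-sEV library, as for 12.2% of all miRNAs tested.

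miR-486-5p showed the largest difference of the members, with a TMM-scaled level of 70.9 ± 5.02 CPM in Cis-sEV against 761 ± 389 CPM for the controls (SD, n = 3 each). Its log2 fold change was −3.42 (SE 0.57, edgeR adjusted p = 0.00537), or 10.7-fold lower, and 2 other miRNAs of the 351 had a lower value. miR-122-5p followed with 1075 ± 167 and 7412 ± 1311 CPM. Its log2 fold change was −2.79 (SE 0.21, edgeR adjusted p = 0.0011), 6.89-fold lower, and its p was the smallest of all miRNAs tested. miR-451a showed the smallest difference, with 1060 ± 126 and 2351 ± 773 CPM, a log2 fold change of −1.15 (SE 0.30, edgeR adjusted p = 0.0218) and a 2.22-fold lower level. The median log2 fold change of all miRNAs tested was 0.44, and relative to it the values were −3.87, −3.23 and −1.59. This background includes miRNAs with no Ctrl-sEV reads, which passed the filter through the deeper Cis-sEV libraries alone. Among the 135 miRNAs with at least 10 reads in each library, 30 were called lower. Their median was 0.10, and relative to it the members' values were −3.46, −2.82 and −1.19.

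**Figure D2:**
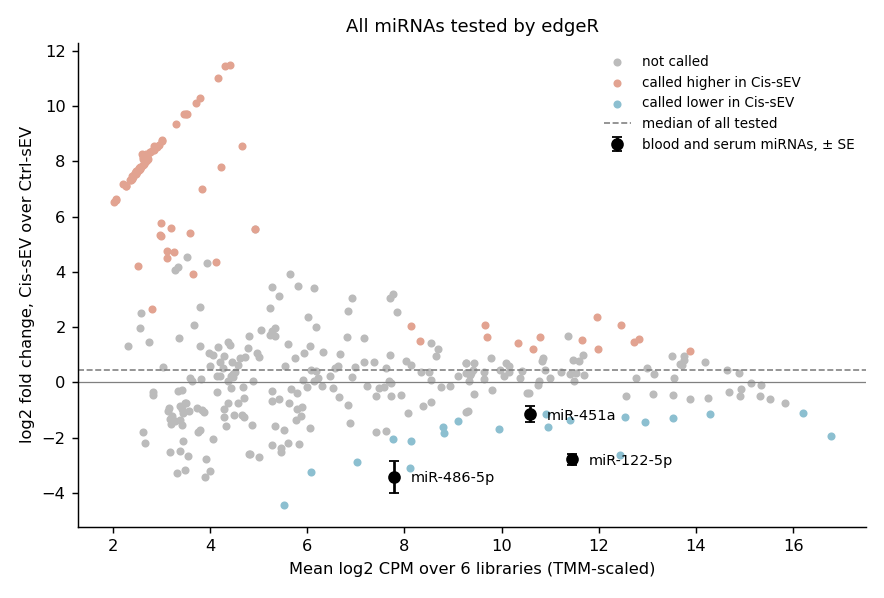
Log2 fold change of Cis-sEV over Ctrl-sEV (vertical axis) against the mean log2 CPM (horizontal axis) of the 352 miRNAs tested by edgeR, with the blood and serum miRNAs in black (± SE). All 3 members lie below 0 and below the median of 0.44, at −3.42, −2.79 and −1.15.

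Of these calls, that of miR-451a was the least secure. It was lost when libraries were scaled by total miRNA reads (log2 fold change −0.80, adjusted p = 0.0786), with DESeq2 (−1.22, adjusted p = 0.187) and in 5 of the 6 fits that left out a library (−1.32 to −0.91). It was kept in the fit without Ctrl-sEV replicate 3, the lowest control. The sign was negative in all 20 alternatives. Among these, the setting that only dropped the limit on the fold change reused the reported fit, so its signs and calls were fixed. miR-122-5p stayed called in all 20, and miR-486-5p in all that tested the summed row.

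**Figure D3:**
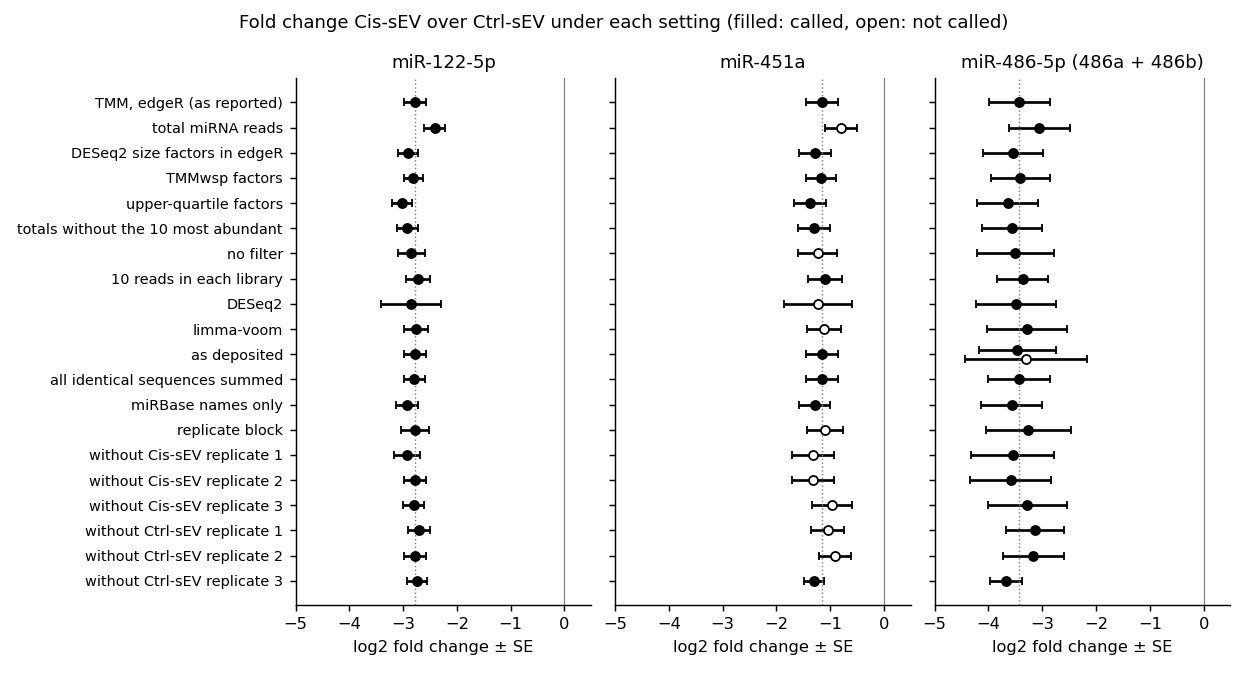
Log2 fold change ± SE (horizontal axes) of miR-122-5p, miR-451a and miR-486-5p under each fitted setting (rows). Points are filled where called and open where not, with the reported value dotted. Each value lies left of 0, and the open points are those of miR-451a in 10 settings, plus the row of miR-486b-5p tested alone.

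The division of the miR-486-5p reads between its rows differed from library to library. miR-486a-5p had 85, 89 and 130 reads in Cis-sEV and 365, 429 and 90 in Ctrl-sEV, and miR-486b-5p had 57, 54 and 9 in Cis-sEV and 79, 197 and 69 in Ctrl-sEV. The share on the miR-486a-5p row was 59.9%, 62.2% and 93.5% in Cis-sEV and 82.2%, 68.5% and 56.6% in Ctrl-sEV. In Cis-sEV replicate 3 the 95% Wilson interval was 88.2% to 96.6%, which does not reach those of the other Cis-sEV libraries (51.6% to 67.6% and 54.1% to 69.8%). Wilson intervals cover counting error only. Since the letters are identical, no read can be placed on 1 of these genes by its sequence. As separate rows, miR-486a-5p had a log2 fold change of −3.47 (SE 0.72, edgeR adjusted p = 0.0111) and miR-486b-5p −3.31 (SE 1.13, edgeR adjusted p = 0.0618), so the row alone lost the call that the sum kept. The coefficient of variation among the Cis-sEV libraries was 23.4% and 67.5% for the separate rows, against 3.55% for the sum.

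A ratio of members within a library does not depend on how libraries are scaled. For each pair, log2 ratios with 0.5 read added to both were compared by a two-sided exact permutation test, which with 3 against 3 libraries cannot give a p below 0.1. The ratio of miR-451a to miR-486-5p was 15.7, 15.1 and 13.9 in Cis-sEV, and 2.64, 3.14 and 4.45 in Ctrl-sEV. All Cis-sEV values exceeded all Ctrl-sEV values, by 2.16 ± 0.23 (SE, n = 3 each) on the log2 scale or 4.47-fold (exact permutation p = 0.1, 0.15 adjusted over the 3 pairs). Both are red cell miRNAs, and their ratio did not overlap between the groups, at the smallest p that this design allows.

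The ratio of miR-122-5p to miR-451a was near 1 in Cis-sEV, at 0.978, 0.786 and 1.34, and above 2 in each Ctrl-sEV library, at 3.14, 2.42 and 4.56. The difference was −1.69 ± 0.35 (SE, n = 3 each) on the log2 scale, 3.22-fold lower in Cis-sEV (exact permutation p = 0.1, adjusted 0.15). For miR-122-5p to miR-486-5p the ratios overlapped, with 15.4, 11.9 and 18.7 in Cis-sEV and 8.26, 7.59 and 20.3 in Ctrl-sEV. This difference, 0.47 ± 0.49 (SE, n = 3 each), was less than its error (exact permutation p = 0.4, adjusted 0.4). As a share of all member reads, miR-122-5p made up 48.6% ± 6.62 in Cis-sEV and 71.0% ± 7.19 in Ctrl-sEV, miR-451a 48.1% ± 6.32 and 22.1% ± 4.74, and miR-486-5p 3.22% ± 0.316 and 6.94% ± 2.65 (SD, n = 3 each). miR-451a was the only member with a higher share in Cis-sEV, apart from the 2 reads of miR-144-3p.

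The members were then set against 3 reference miRNAs. The ratio of miR-451a to miR-23a-3p, the plasma index of haemolysis, was 0.0691, 0.0647 and 0.0553 in Cis-sEV and 0.240, 0.277 and 0.137 in Ctrl-sEV, so every Cis-sEV library was lower. The log2 difference was −1.74 ± 0.32 (SE, n = 3 each), or 3.33-fold (exact permutation p = 0.1, adjusted over 9 ratios 0.1125). The reference itself was higher in Cis-sEV, with a TMM-scaled level of 16810 CPM against 10805 CPM, no overlap and a log2 fold change of 0.64 (SE 0.13, edgeR adjusted p = 0.00995), below the limit for a call. Part of each difference to miR-23a-3p is thus that of the reference. To the same reference, miR-486-5p differed by −3.90 ± 0.52 and miR-122-5p by −3.42 ± 0.18. To miR-16-5p, which is abundant in red cells but also made in most tissues, the differences were −1.46 ± 0.52 for miR-451a, −3.62 ± 0.71 for miR-486-5p and −3.15 ± 0.45 for miR-122-5p, again with no overlap.

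To miR-204-5p, the most abundant miRNA of these libraries, the differences were smaller and 1 changed sign. miR-486-5p differed by −1.37 ± 0.58 and miR-122-5p by −0.89 ± 0.24, while miR-451a differed by 0.80 ± 0.41 (SE, n = 3 each), with overlapping groups (exact permutation p = 0.2, adjusted 0.2). The ratios of miR-451a to miR-204-5p were 0.0187, 0.0189 and 0.0170 in Cis-sEV, and 0.0102, 0.0174 and 0.00648 in Ctrl-sEV. miR-204-5p had nearly the same reads in every library, 113807 to 119358 for Cis-sEV and 109279 to 114204 for Ctrl-sEV, so it took a larger share of the shallower libraries. It was itself called lower in Cis-sEV, with a log2 fold change of −1.93 (SE 0.23, edgeR adjusted p = 0.00502), a larger fall than that of miR-451a. Against each reference miR-486-5p had the lowest difference, then miR-122-5p, then miR-451a, an order that the shared numerators fix.

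**Figure D4:**
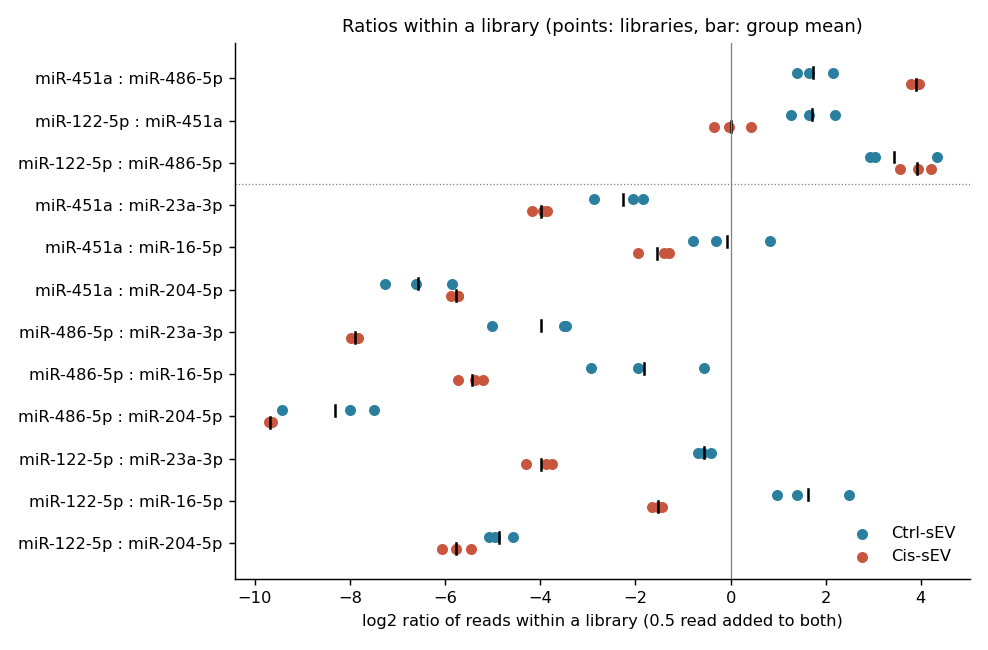
Log2 ratios of reads within a library (horizontal axis; 0.5 read added to both) for the 3 pairs of members (above the dotted line) and for each member to 3 reference miRNAs. Points are libraries and bars are group means (n = 3). The groups overlap for miR-122-5p to miR-486-5p and for miR-451a to miR-204-5p, and are apart in the other 10 ratios. The ratios reuse the same few rows, and ratios of other miRNAs were not taken, so this count has no background share beside it.

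Other miRNAs that are rich in the same sources were read from lists, to see whether they moved with the members. Of 9 other erythrocyte-rich miRNAs, 8 were tested, of which 1 rose and 1 fell, beside the 30.1% called in either direction over all miRNAs tested. miR-25-3p had a log2 fold change of 2.07 (SE 0.42, edgeR adjusted p = 0.0103) and miR-92a-3p −1.43 (SE 0.18, adjusted p = 0.00502). These belong to related clusters and share a seed family. miR-16-5p had a value of 0.31 (SE 0.28, adjusted p = 0.529). The median of the 8 was 0.64, beside 0.44 for all miRNAs tested. Scaled by total miRNA reads, all 9 summed to 13088 to 15323 CPM in Cis-sEV libraries and 13891 to 18212 CPM in Ctrl-sEV libraries. These ranges overlap.

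Of the 4 other liver-rich miRNAs, 3 were tested and none was called, beside the 30.1% called in either direction over all miRNAs tested. miR-148a-3p had the highest level in Cis-sEV, with a log2 fold change of 3.04 (SE 1.21, edgeR adjusted p = 0.1004). In Ctrl-sEV miR-192-5p was higher, with a TMM-scaled level of 182 CPM against 60.6 CPM. Its log2 fold change was 0.98 (SE 0.85, edgeR adjusted p = 0.496), which was also the median of the list. All 4 summed to 1073 to 1191 CPM in Cis-sEV libraries and 226 to 324 CPM in Ctrl-sEV libraries. These ranges were apart and in the opposite order to miR-122-5p. This order was not tested. Scaled by total miRNA reads, as these sums are, all miRNAs tested had a median log2 fold change of 0.80. Single rows varied widely in Ctrl-sEV, with 81, 230 and 13 reads of miR-192-5p and 36, 1 and 45 of miR-148a-3p. Of 6 leukocyte and platelet miRNAs, 4 had a row and 3 were tested, with none called and a median of −0.08. The most abundant of them, miR-146a-5p, which is induced in inflammation, had a log2 fold change of −0.08 (SE 0.20, adjusted p = 0.846). miR-150-5p, a lymphocyte miRNA, had −0.86 (SE 0.49, adjusted p = 0.254) and miR-155-5p 1.88 (SE 2.08, adjusted p = 0.620). The list summed to 2380 to 2520 CPM in Cis-sEV libraries and 1908 to 2195 CPM in Ctrl-sEV libraries.

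Of both endothelial miRNAs, the arms of miR-126a, miR-126a-3p was called lower with a log2 fold change of −1.28 (SE 0.18, edgeR adjusted p = 0.00523), and miR-126a-5p was not (4.17, SE 1.51, adjusted p = 0.0758). The list summed to 6915 to 9947 CPM in Cis-sEV libraries and 14595 to 18602 CPM in Ctrl-sEV libraries. For the labelled tissue, the hair cell miRNAs miR-183-5p, miR-182-5p and miR-96-5p were abundant in both groups, at 59073 to 81525 CPM in Cis-sEV libraries and 54984 to 55757 CPM in Ctrl-sEV libraries. miR-96-5p alone was called, higher, with 2.08 (SE 0.47, adjusted p = 0.0142). The most abundant of them, miR-183-5p, went the other way, with −0.49 (SE 0.15, edgeR adjusted p = 0.0407), short of the fold change limit. Of the neuronal miRNAs, miR-124-3p had 109, 25 and 88 reads in Cis-sEV and 0 in each Ctrl-sEV library and was called higher. It passed the filter through Cis-sEV alone, so a call could only have been higher. miR-9-5p, which had the higher level, was not called (0.15, SE 0.22, edgeR adjusted p = 0.706). The part of these lists in the members' values was not tested, and in vesicles of whole explants fewer source cells and less RNA per cell cannot be told apart. Whether a read came from mouse cells or from the serum of the medium was not tested.

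**Figure D5:**
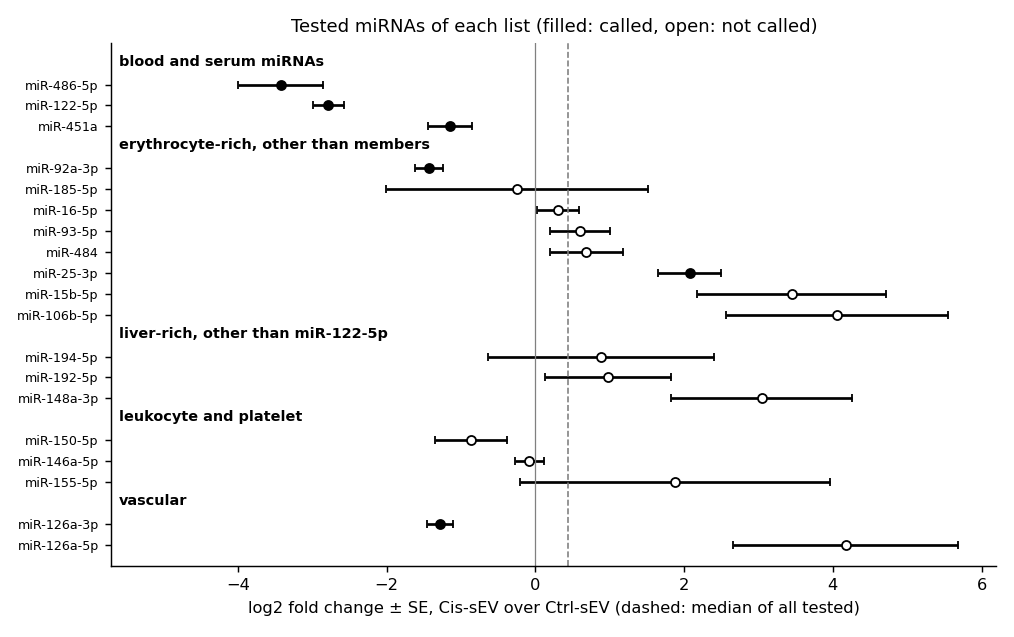
Log2 fold change ± SE of Cis-sEV over Ctrl-sEV (horizontal axis) for the tested members and the tested miRNAs of 4 lists, filled where called, with the median of all miRNAs tested dashed. The members lie at −3.42, −2.79 and −1.15, while the other erythrocyte-rich miRNAs lie on both sides of 0 and the 3 other liver-rich miRNAs lie above it, none of them called.

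The miRNAs with the profile most like each member were found by the root mean square difference of centred log2 CPM over the 6 libraries, where 0 is an identical profile. This is a description, since the points share their libraries. Nearest to miR-451a were miR-423-5p (0.207), miR-150-5p of the leukocyte list (0.211) and let-7c-5p (0.251), against a median of 2.18 over all miRNAs tested. miR-423-5p had 690, 656 and 702 reads in Cis-sEV and 385, 804 and 317 in Ctrl-sEV. Among the controls, it and miR-451a were both lowest in replicate 3. Both had most reads in Ctrl-sEV replicate 2, the deepest control library, but TMM-scaled miR-451a was not highest there (2846, 2747 and 1461 CPM). Between the members, miR-486-5p lay 0.540 from miR-122-5p and 1.09 from miR-451a, and miR-122-5p 0.913 from miR-451a.

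The 3 profiles nearest to miR-122-5p, and those nearest to miR-486-5p other than miR-122-5p, belonged to short, simple or predicted sequences, which are shown for that reason, again with bases 2 to 8 in capitals. The last 3 are miRNAs that the authors predicted.
mmu-miR-466i-5p: uGUGUGUGugugugugugug
predicted miRNA, chromosome 1: cACACACAcacacacacacaca
predicted miRNA, chromosome 4: gGGGGAUUagcucagcug
predicted miRNA, chromosome 7: aUCUCGCUggggccucca
miR-466i-5p, a dinucleotide repeat, was nearest to miR-486-5p (0.266), with 55, 33 and 47 reads in Cis-sEV and 107, 204 and 45 in Ctrl-sEV. The predicted miRNA of chromosome 1, a repeat of the opposite letters, was near both members (0.559 and 0.499). Those of chromosomes 4 and 7 were nearest to miR-122-5p (0.356 and 0.476). All 4 were called lower, and in the order printed their log2 fold changes were −3.24, −2.89, −3.09 and −2.14. These calls follow from choosing profiles near members that were called lower, so they are no separate result. The medians over all miRNAs tested were 2.93 for miR-486-5p and 2.70 for miR-122-5p, and scaling by total miRNA reads gave the same neighbours.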

How the data were processed

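The authors pooled about 80 explants for each library, cut small RNA of 18 to 30 nt from a gel and sequenced it by DNBSEQ. Alignment used Bowtie2 and GRCm38.p6, and annotation AASRA and cmsearch. They deposited raw counts of reads for each mature miRNA and library, without normalization, so that levels are relative to miRNA reads, and reads of other RNA were not analysed here. Group averages in the table were not used. The study calls the 3 libraries of a group biological replicates, and the p-values weigh the difference between groups against the spread between these libraries. No library was a copy of another of its group (chi-square per degree of freedom 66.3 to 115 between their counts).

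Both miR-486-5p rows were summed, and all rows were fitted with edgeR 4.0.16 (TMM, filterByExpr defaults, quasi-likelihood test, Benjamini-Hochberg), in R 4.3.3. The filter asked for a minimum count of 10 and a total of 15 reads. The minimum count, turned into CPM, had to be reached in 3 libraries, the size of a group, and not in each library. TMM factors ranged from 1.10 to 1.18 for Cis-sEV libraries and 0.762 to 0.995 for Ctrl-sEV libraries. The authors' own test was an MA-plot method, whose limits on fold change and adjusted p were kept. Ratios used Python 3.11.15, scipy 1.17.1 and exact permutation. Alternatives were other scalings, filters, DESeq2 1.42.0, limma 3.58.1 (voom), unsummed rows, replicate number as a block and each library left out. Another only dropped the limit on the fold change. miRNAs were named by a rule: the members, the references, the other strands of the member genes, list members that were called or most abundant, and the 3 nearest profiles. miR-150-5p was named as such a neighbour, and miR-155-5p and miR-192-5p were added outside the rule after their values were seen. miR-126a-5p, the less abundant arm of miR-126a, was also named outside the rule. The members, references and lists were chosen with earlier results of these data known. Gene positions came from GENCODE M21 and sequences from the deposited table, with a check against RefSeq.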

Additional observations from a re-analysis of the deposited data

How the results depend on the processing

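The log2 fold change of miR-451a fell short of a call with total miRNA reads (−0.80, adjusted p = 0.0786), no filter (−1.23, 0.0586), DESeq2 (−1.22, 0.187), limma-voom (−1.11, 0.0701) and the replicate block (−1.09, 0.0929), and without each library other than Ctrl-sEV replicate 3 (−1.32 to −0.91 over the 6 fits, adjusted p 0.0111 to 0.130). The cause was not tested. miR-486-5p lost the call in the row of miR-486b-5p tested alone (−3.31, adjusted p = 0.0618), and its summed row ranged from −3.65 to −3.05, or −3.68 to −3.14 without 1 library. miR-122-5p ranged from −3.01 to −2.42, with adjusted p up to 0.0081. No value changed sign, and all 12 ratios kept their sign when 1 read was added in place of 0.5 or a library was left out.

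The counts of calls over all miRNAs, which set the background, moved more. They were 83 higher and 23 lower as reported, 97 and 11 with total miRNA reads, 62 and 14 with no filter (809 tested), 18 and 30 with at least 10 reads in each library (135 tested), 31 and 14 with limma-voom, 14 and 12 with the replicate block, and 40 to 143 and 12 to 29 without 1 library. They were 40 and 13 without Cis-sEV replicate 1, 43 and 13 without Cis-sEV replicate 2, 59 and 12 without Cis-sEV replicate 3, and 143 and 25 without Ctrl-sEV replicate 3. The labels do not say whether libraries of the same number were prepared together. The correlations of deviations from the group mean were −0.06, −0.19 and −0.02 between libraries of the same number. Between libraries of unlike number they were −0.11 to 0.17. So few values cannot decide whether the libraries were paired. With 3 pairs the block could give no p below 0.25 for a ratio.

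miR-144-3p was under the floor of 3 reads in every library of both groups and could not be compared at this depth.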
